A study of Mus musculus with 7 samples.

Results

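The transcripts described here are 3 embryonic globins (Hbb-y, Hbb-bh1 and Hba-x) and 5 genes of red cell precursors (Alas2, Slc4a1, Epb42, Rhag and Hemgn). They were chosen by symbol, as the probe set that carries only that symbol, and all 8 were found, each with 1 probe set, among 19938 genes on the array. RNA came from 7 samples of C57BL/6 mouse cerebral cortex at embryonic day 14. Cortices had received constructs that included green fluorescent protein (GFP) by electroporation on embryonic day 13, and 24 h later the GFP-positive cells were taken by flow sorting. In 3 samples Trnp1, a nuclear protein of cortical progenitors, was knocked down, and the 4 control samples were of wild-type genotype. The labels do not say which construct the controls received, what sequence the knockdown used or how many embryos or cells went into a sample, and they call the samples biological replicates. The comparison shows how red cell transcripts varied among sorted cortical samples and between the knockdown and control groups.

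In the mouse embryo the earliest red cells form in the yolk sac and circulate with their nuclei, carrying haemoglobin made of embryonic globin chains. Hba-x encodes the embryonic alpha-like chain zeta, and Hbb-y and Hbb-bh1 encode embryonic beta-like chains. Red cells made later in the fetal liver carry mainly adult globins. Neural cells of the cortex are not known for these transcripts, and blood reaches the tissue through its growing vessels.

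Trnp1 was lower in all 3 knockdown arrays than in all 4 control arrays, by a log2 difference of -0.40 (SE 0.12). An exact permutation test (two-sided) gave p = 0.0286, which is the lowest that 35 possible splits can reach, and the limma adjusted p was 0.825. Array medians on the log2 scale were 4.398 to 4.449 in controls and 4.466 to 4.61 in knockdown samples. Every knockdown median thus lay above every control median. Control replicate 4 stood apart from the other controls in its marker lists: its mean level over 12 endothelial genes was 6.77, against 4.50 to 4.84 in the other controls. Its mean over 12 genes of cortical progenitors and neurons was 9.13, against 9.53 to 9.57. Results of the 8 genes are therefore given with and without it. It was not the only array that varied more: limma's array weights were 0.615 for knockdown replicate 3, 0.731 for knockdown replicate 2 and 0.749 for control replicate 4, against 0.964 to 1.83 for the others. Genes of the labelled tissue were bright, with the cortical list at a median percentile of 98.3 of mean level among all genes.

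Erythroid promoters commonly carry sites for GATA1 and for KLF1, the main activators of red cell genes, and a CCAAT box. RefSeq promoter windows of build GRCm38.p6 were matched for 6 of the 8 genes and not for Hbb-bh1 and Slc4a1. Shown are the 250 bases upstream of the annotated start for Hbb-y, Hba-x and Alas2, whose levels followed each other across the arrays, and for Rhag, whose levels did not. Capitals mark AGATAA or TGATAA (the GATA motif), CCACCC (the CACCC box bound by KLF1) and CCAAT, each searched on both strands.
Hbb-y (chr7:103853208-103853457, minus strand): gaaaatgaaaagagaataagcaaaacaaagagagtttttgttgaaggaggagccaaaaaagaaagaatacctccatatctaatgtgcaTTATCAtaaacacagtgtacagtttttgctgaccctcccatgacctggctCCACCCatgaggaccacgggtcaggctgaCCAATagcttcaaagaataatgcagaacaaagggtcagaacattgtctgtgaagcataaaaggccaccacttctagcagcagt
Hba-x (chr11:32276350-32276599, plus strand): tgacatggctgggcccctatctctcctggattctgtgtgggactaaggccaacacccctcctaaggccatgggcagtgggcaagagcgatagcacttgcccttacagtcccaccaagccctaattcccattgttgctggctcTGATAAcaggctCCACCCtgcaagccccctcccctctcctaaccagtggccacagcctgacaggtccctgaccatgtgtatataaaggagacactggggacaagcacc
Alas2 (chrX:150547167-150547416, plus strand): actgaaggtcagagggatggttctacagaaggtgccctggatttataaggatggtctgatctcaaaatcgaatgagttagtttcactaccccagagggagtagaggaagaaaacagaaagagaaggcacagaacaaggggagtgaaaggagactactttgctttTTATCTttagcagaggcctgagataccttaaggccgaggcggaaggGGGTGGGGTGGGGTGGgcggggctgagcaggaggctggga
Rhag (chr17:40810899-40811148, plus strand): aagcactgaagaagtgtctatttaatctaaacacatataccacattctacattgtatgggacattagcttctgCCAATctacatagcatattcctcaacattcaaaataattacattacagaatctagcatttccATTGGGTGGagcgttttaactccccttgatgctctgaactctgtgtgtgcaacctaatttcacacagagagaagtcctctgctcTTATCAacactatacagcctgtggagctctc

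The GATA motif and the CACCC box stood in all 4 of these windows. In Hbb-y the GATA motif lay 162 to 157 bases upstream, on the opposite strand, and in Hba-x 108 to 103 bases upstream on the gene's own strand. The CACCC box followed 112 to 107 bases upstream in Hbb-y and 96 to 91 bases upstream in Hba-x. Alas2 held 3 CACCC matches on the opposite strand that overlap each other by their end bases, and in Rhag the CACCC match overlapped a CCAAT match. CCAAT was present in the windows of Hbb-y and Rhag. The windows of Epb42 and Hemgn held a GATA match only. Among 32851 windows of the same length, 16.6% held the GATA motif, 28.1% the CACCC box, 33.8% CCAAT and 1.15% all of them. These matches describe letters and do not show binding, and Rhag held every motif that Hbb-y held.

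Hbb-y, which encodes the embryonic beta-like chain epsilon-y, gave log2 levels of 10.51, 10.975, 10.82 and 11.92 in control replicates 1 to 4 and of 11.40, 11.97 and 11.96 in knockdown replicates 1 to 3. Control replicate 4 was as high as the highest knockdown arrays, so the groups overlapped, while the other controls lay below every knockdown array. The group levels were 11.06 ± 0.609 (SD, n = 4) and 11.78 ± 0.327 (SD, n = 3). The difference was 0.72 (SE 0.34, 95% interval -0.066 to 1.51), or 1.65-fold (0.955 to 2.84). It did not pass the test (limma adjusted p = 0.825). The probe set was among the brightest of the array (percentile 99.7 of mean level), which describes signal and not the number of transcripts.

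Hba-x, the zeta chain, showed the same order of arrays apart from its highest ones. Its levels were 9.64, 10.07, 9.90 and 11.82 in controls and 10.485, 11.695 and 11.46 in knockdown samples. Control replicate 4 was the highest of all 7 arrays, and the other controls lay below every knockdown array. The group levels were 10.36 ± 0.989 (SD, n = 4) and 11.21 ± 0.641 (SD, n = 3), with a difference of 0.85 (SE 0.55, 95% interval -0.44 to 2.15, limma adjusted p = 0.825). This probe set was also very bright (percentile 99.3).

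Hbb-bh1, the embryonic beta-like chain whose gene lies in the same beta-globin cluster as Hbb-y, had the widest spread of the 8. Controls gave 5.14, 4.50, 3.77 and 5.235, and knockdown samples 4.54, 6.88 and 5.75. Knockdown replicate 2 was the highest array and replicate 1 lay inside the control range. Its levels ranged over 3.11 log2 units, more than 98.9% of genes. The group levels were 4.66 ± 0.679 (SD, n = 4) and 5.73 ± 1.17 (SD, n = 3), a difference of 1.06 (SE 0.58, 95% interval -0.29 to 2.42, limma adjusted p = 0.825). Without knockdown replicate 2 the difference was 0.48, and without knockdown replicate 1 it was 1.65. Globin genes of a cluster resemble each other, so their probe sets can share signal.

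Alas2, the red cell form of the enzyme that starts heme synthesis, followed the globins. Controls gave 3.93, 4.01, 4.27 and 5.14, and knockdown samples 4.63, 5.10 and 5.27. Again the other 3 controls lay below every knockdown array, and control replicate 4 lay among the knockdown values. The group levels were 4.34 ± 0.553 (SD, n = 4) and 5.002 ± 0.330 (SD, n = 3), with a difference of 0.66 (SE 0.31, 95% interval -0.067 to 1.40, limma adjusted p = 0.825). Its probe set was far dimmer (percentile 46.3).

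**Figure D1:**
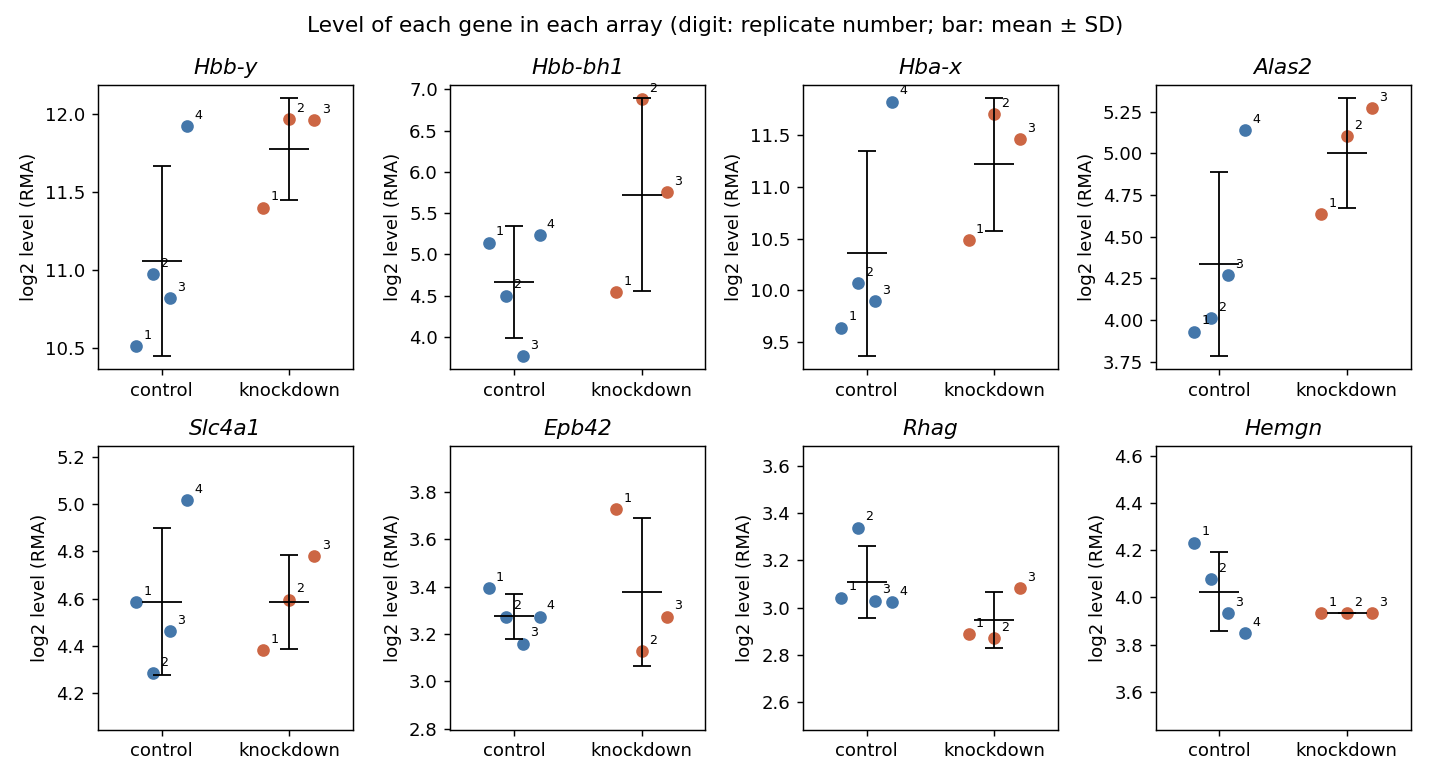
Log2 level (RMA, vertical axes, each panel on its own scale) of the 8 genes in 4 control (blue) and 3 knockdown (orange) arrays; digits give the replicate number and black bars the mean ± SD. In Hbb-y, Hba-x and Alas2 control replicate 4 lies with the knockdown arrays and above the other controls, while Slc4a1, Epb42, Rhag and Hemgn vary over less than 0.8 log2 units.

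The genes of the red cell membrane differed less between the groups. Slc4a1, the chloride and bicarbonate exchanger called band 3, gave 4.59, 4.29, 4.46 and 5.02 in controls and 4.38, 4.60 and 4.78 in knockdown samples. Control replicate 4 was highest here too, followed by knockdown replicates 3 and 2, and all knockdown arrays lay inside the control range. The difference was -0.0017 (SE 0.19, 95% interval -0.45 to 0.45, limma adjusted p = 0.999).

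Epb42, protein 4.2, which ties band 3 to the membrane skeleton, gave 3.39, 3.27, 3.16 and 3.27 in controls and 3.73, 3.13 and 3.27 in knockdown samples. Knockdown replicate 1 was highest and replicate 2 lowest, so the knockdown arrays enclosed the controls. Its difference was 0.10 (SE 0.16, limma adjusted p = 0.915). Rhag, the glycoprotein that carries the Rh complex to the membrane, gave 3.04, 3.34, 3.03 and 3.02 in controls and 2.89, 2.87 and 3.08 in knockdown samples. Its difference was -0.16 (SE 0.12, 95% interval -0.45 to 0.13, limma adjusted p = 0.839), with the groups overlapping through knockdown replicate 3. Both probe sets were dim, at percentiles 16.6 and 7.87 of mean level.

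Hemgn encodes hemogen, a nuclear protein of blood cell precursors. It gave 4.23, 4.08, 3.93 and 3.85 in controls and 3.93 in each knockdown sample. The value 3.934 was listed identically, to every decimal given, in 4 arrays, namely control replicate 3 and all knockdown replicates. Epb42 was listed at 3.273 in 3 arrays. Such repeats in at least 3 arrays occurred for 1440 genes (7.22%), of which 1178 lay below the median of mean level, so arrays at these values have no order. The Hemgn difference was -0.09 (SE 0.12, limma adjusted p = 0.900), and its SD of 0 in knockdown samples reflects the repeated value.

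Over all 8 genes, 5 were higher and 3 lower in knockdown samples, with a median log2 difference of 0.38, beside -0.001 over all genes. By limma 0 of the 8 had an adjusted p under 0.05, beside 0% of the 19938 genes, and the smallest adjusted p of any gene was 0.736. At an unadjusted p under 0.05 the count was 0 of 8, beside 5.81% of all genes (2.2% higher and 3.61% lower). Groups that do not overlap were found for 0 of 8, beside 5.67% of all genes (2.59% higher). A size of over 0.6 was reached upward by 4 of the 8 genes, beside 2.44% of all genes. These were the 3 embryonic globins and Alas2, which were also the 4 that varied by at least 1.3 log2 units over the arrays, beside 16.3% of all genes (28.9% at 1 unit). Both limits were set with the values of these genes known, so the counts are a description.

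In Hbb-y, Hba-x and Alas2 the 4 highest arrays were control replicate 4 and the 3 knockdown replicates. This holds for 3 of the 8 genes, beside 3.29% of all genes, and it was noticed after the values were seen. Hbb-bh1 and Slc4a1 shared 3 of these 4 highest arrays but had control replicate 1 in place of knockdown replicate 1. The mean deviation of the 3 embryonic globins from their own means was -0.64, -0.55, -0.91 and 0.59 in control replicates 1 to 4 and -0.26, 1.11 and 0.65 in knockdown replicates 1 to 3. Pearson's r of Alas2 with this profile was 0.901 over the 7 arrays, and that of Slc4a1 0.624. It was -0.272 for Epb42, -0.401 for Rhag and -0.535 for Hemgn. These values describe the arrays of both groups together.

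**Figure D2:**
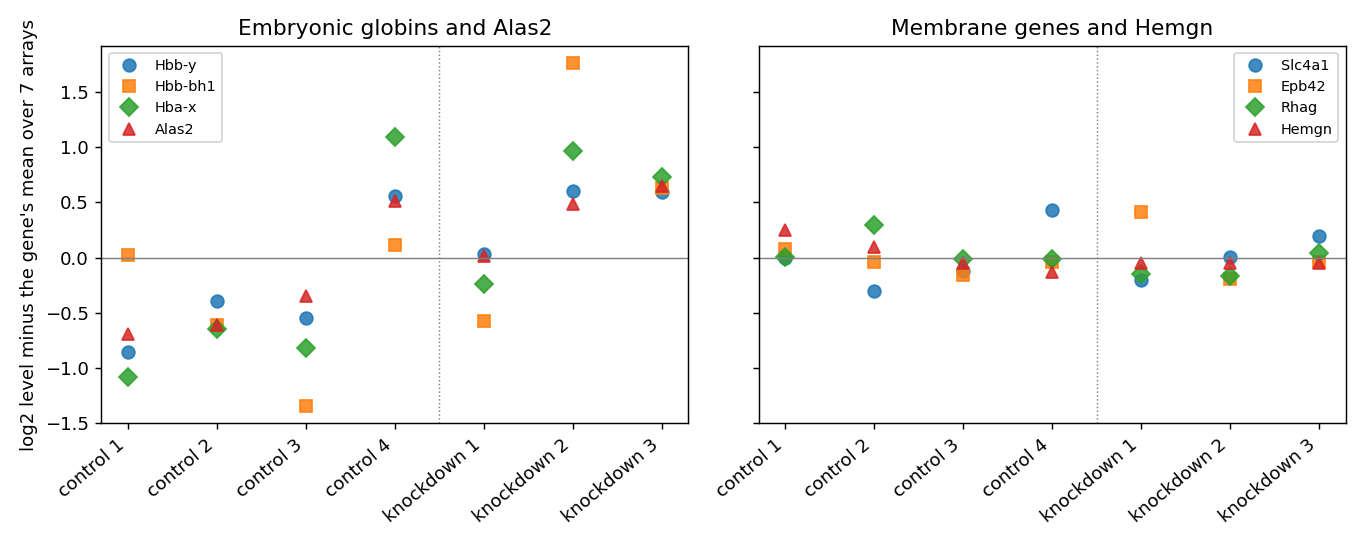
Log2 level of each gene minus its own mean over the 7 arrays (vertical axis) by array (horizontal axis, dotted line between control and knockdown). Hbb-y, Hba-x and Alas2 (left) are above their means in control replicate 4 and knockdown replicates 2 and 3 and below in control replicates 1 to 3, whereas Slc4a1, Epb42, Rhag and Hemgn (right) stay within 0.5 log2 units of theirs.

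Without control replicate 4 the difference was 1.01 (SE 0.21, 95% interval 0.51 to 1.51) for Hbb-y, 1.34 (SE 0.32, 0.56 to 2.12) for Hba-x and 0.93 (SE 0.20, 0.46 to 1.41) for Alas2. The array left out is the control that lay among the knockdown values in these genes, so the groups separate here by construction and the counts restate the order of the arrays. An unadjusted p under 0.05 with a higher knockdown level was found for 3 of the 8 genes, beside 3% of all genes, and upward separation for the same 3, beside 5.39%. Neither count supports a difference between the groups. Their limma adjusted p was 0.741, and 0 of the 19938 genes passed, with 1319 genes at an unadjusted p under 0.05. Hbb-bh1 differed by 1.25 (SE 0.63) and its groups still overlapped. Slc4a1, Epb42, Rhag and Hemgn differed by 0.14, 0.10, -0.19 and -0.15.

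**Figure D3:**
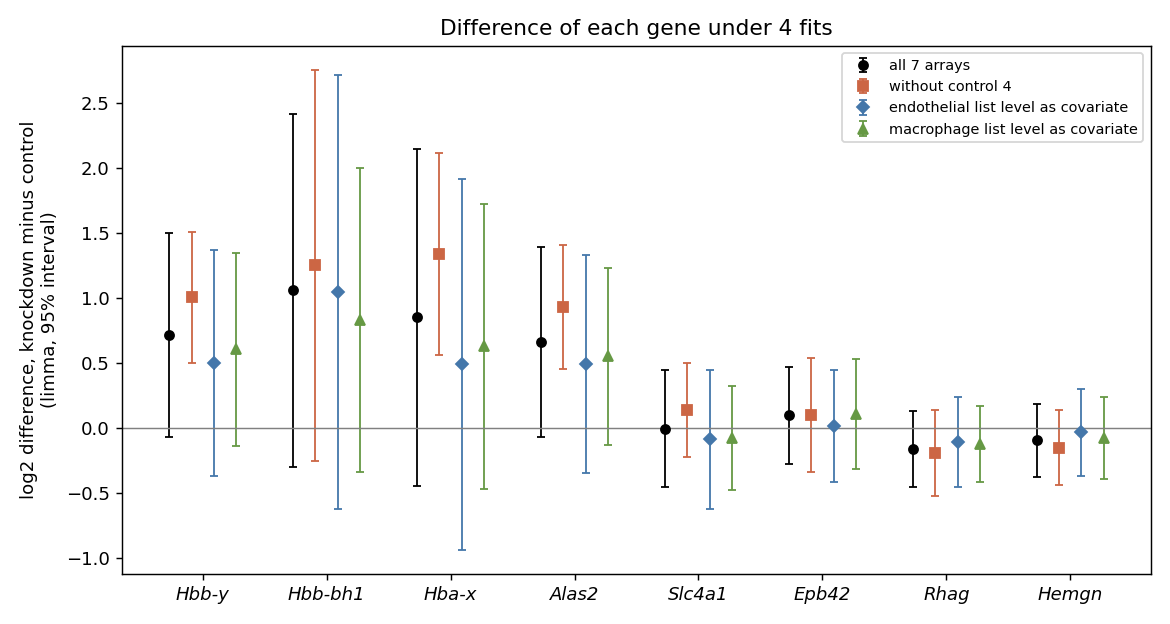
Log2 difference, knockdown minus control, of each gene (vertical axis; points with 95% intervals of limma) in 4 fits: all 7 arrays, without control replicate 4, and with the mean level of the endothelial or the macrophage list as a covariate. The intervals of Hbb-y, Hba-x and Alas2 lie above 0 only in the fit without control replicate 4 among these fits, and those of Slc4a1, Epb42, Rhag and Hemgn include 0 in all 4.

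Other red cell genes were taken from lists of factors, membrane proteins and enzymes. Of the 9 factors and cofactors of the erythroid programme, 6 were higher and 3 lower, 0 passed, and the median difference was 0.041. Ldb1, a cofactor that many tissues express, was the brightest (percentile 98.8), followed by the corepressor Cbfa2t3, with differences of -0.13 (SE 0.12) and 0.30 (SE 0.23). Cbfa2t3 ranged from 0.18 without knockdown replicate 1 to 0.46 without knockdown replicate 3, and was at 0.036 with the mean level of the endothelial list as a covariate. Ldb1 was at 0.015 after a further quantile normalization and 0.044 after cyclic loess normalization. Gata1 and Klf1, named here because they define the red cell lineage, were dim, at percentiles 34.1 and 22.7. Gata1 levels lay between 3.79 and 4.05 in controls and between 3.64 and 4.06 in knockdown samples. Control replicate 4, high in the globins, was the lowest control for Gata1. The mean of the 9 factors went the other way, and was highest of all arrays in control replicate 4, at 5.80.

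The membrane and skeleton list held 14 measured genes of 17, with 8 higher, 6 lower, 0 called and a median difference of 0.044. Add2, a skeletal adducin, was its brightest gene. Dmtn, which bundles actin in the skeleton, gave 4.93, 4.96 and 6.035 in knockdown samples, all above the controls. It was the 1 gene of the 14 whose groups did not overlap, beside 5.67% of all genes. Its difference of 0.50 (SE 0.27) became 0.14 when knockdown replicate 3 was left out. For Ank1, the ankyrin that anchors band 3, the difference was 0.34 (SE 0.22), falling between 0.17 and 0.63 when single arrays were left out. Of the 13 other genes typical of red cells, 5 were higher and 8 lower, 0 passed, and the median was -0.035. Bpgm, the enzyme that makes bisphosphoglycerate, and Prdx2, an abundant peroxidase of red cells that neural cells also make, were the brightest. Prdx2 differed by -0.44 (SE 0.24) and Gata2, a factor of early blood and vessel cells, by 0.34 (SE 0.18). Over these 3 lists together, 36 genes, the mean log2 level was 4.86 to 5.03 in controls and 4.89 to 5.01 in knockdown samples. Control replicate 4 was the highest array. The median percentile of these genes was 41.8 of mean level, so many were dim, and differences of dim probe sets can be compressed. Single genes varied more, with the widest ranges over the 7 arrays in Aqp1 (2.38 log2 units) and Lmo2 (2.25).

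Heme synthesis and iron uptake, which every cell needs, held 16 measured genes of 17, with 9 higher, 7 lower, 0 called and a median difference of 0.026. Tmem14c, a porphyrin transporter of mitochondria, was the brightest. Tfrc, the transferrin receptor, gave 7.09, 6.99, 7.13 and 7.16 in controls and 8.14, 7.535 and 7.41 in knockdown samples. All 3 knockdown arrays were above all controls, and control replicate 4 lay with the other controls. Groups that do not overlap were found for 1 of the 16 genes, beside 5.67% of all genes, and Tfrc was named for its p. Its difference was 0.60 (SE 0.18, 95% interval 0.18 to 1.03, limma adjusted p = 0.825). It was 0.38 without knockdown replicate 1. For Slc25a37, mitoferrin, which brings iron into mitochondria, the difference was 0.70 (SE 0.32), or 0.44 with knockdown replicate 1 left out. The general form of the enzyme, Alas1, named for comparison with Alas2, differed by -0.41 (SE 0.21).

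Of the haemoglobin genes beyond the embryonic ones, 3 had a probe set of their own: Hbb-bh2 (-0.11, SE 0.23), Hbq1a (0.22, SE 0.17) and Hbq1b (0.22, SE 0.18), all dim and none called. Hbq1b differed by 0.032 without knockdown replicate 2. The adult alpha and beta chains were not analysed here, because 4 globin probe sets carry several symbols. Globins outside red cells were close to 0 in difference, with Ngb at 0.067 (SE 0.20), Cygb at 0.086 (SE 0.23) and Mb at -0.028 (SE 0.13), and the signs of Ngb and Cygb changed in some alternatives. Among 6 regulators of globin switching, 3 were higher, 3 lower and 0 called. Bcl11a, the repressor of embryonic globins that cortical neurons also express, gave 10.55, 10.59, 10.75 and 10.376 in controls and 10.05, 9.80 and 10.375 in knockdown samples. Its groups did not overlap (1 of the 6 genes, beside 5.67% of all genes), though knockdown replicate 3 and control replicate 4 were nearly equal. The difference was -0.49 (SE 0.16, limma adjusted p = 0.825). For Lin28b, which favours fetal forms of blood cells, the difference was 0.41 (SE 0.19), or 0.20 with knockdown replicate 2 left out. Sox6, the other bright gene of this list, gave 7.02 to 7.77 in controls and 7.46 to 7.55 in knockdown samples.

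Markers of other cells that travel with blood and vessels varied by array beside the globins. The mean level of the 12 endothelial genes was 4.50 to 6.77 in controls and 5.13 to 7.18 in knockdown samples. All 12 were higher, beside 9929 of all 19938 genes, and 0 were called. Genes of 1 list can vary together, so this count is a description. The median difference was 0.87. That median was 0.44 without knockdown replicate 1, 1.46 without control replicate 4 and 1.54 without knockdown replicate 3. Ramp2 and Egfl7 were the brightest of them. Flt1 and Tek, growth factor receptors of vessels, differed by 1.43 (SE 0.73) and 0.86 (SE 0.43), and by 0.58 and 0.46 without knockdown replicate 1. The defining endothelial genes Cdh5 and Pecam1, named for that role, had percentiles 69.6 and 64.0 of mean level over all arrays. Cdh5 gave 3.83 to 8.37 in controls and 5.89 to 8.54 in knockdown samples, and Pecam1 4.63 to 7.31 and 5.71 to 7.50. The mean level of the 12 macrophage genes was 5.90 to 8.80 in controls and 6.82 to 8.56 in knockdown samples. Again all 12 were higher and 0 called, a count with the same limit, and the median difference was 0.37. That median ran from -0.070 with control replicate 2 left out to 0.97 with control replicate 4 left out. Fcer1g and C1qc were the brightest, and Mrc1 and Pf4 differed by 1.07 (SE 0.75) and 1.00 (SE 0.98). Without knockdown replicate 2 they differed by 0.36 and 0.25, and without knockdown replicate 3 Pf4 differed by 1.87.

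The endothelial mean had the same 4 highest arrays as Hbb-y, namely control replicate 4 and the 3 knockdown replicates. The macrophage mean had control replicate 1, at 7.51, in place of knockdown replicate 3. Within these sets the order of the arrays differed. Knockdown replicate 1 had the highest endothelial mean, 7.18, but the lowest globin levels of its group. Knockdown replicate 3 had high globin levels but an endothelial mean of 5.13 and a macrophage mean of 6.82, both the lowest of its group. Control replicate 4 was the highest control in both lists. With the endothelial mean as a covariate, Hbb-y, Hba-x and Alas2 differed by 0.50, 0.49 and 0.49, and with the macrophage mean by 0.61, 0.63 and 0.56. Hbb-bh1 differed by 1.05 and 0.83. In samples of sorted cells, fewer cells of a type and less RNA per cell cannot be told apart.

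Ppbp, the platelet basic protein and the member of the megakaryocyte and platelet list with the smallest p, had the same 4 highest arrays as Hbb-y. It gave 5.34, 3.72, 5.60 and 7.76 in controls and 7.375, 7.44 and 7.36 in knockdown samples. The difference was 1.78 (SE 0.81, limma adjusted p = 0.825). Leaving out control replicate 4 raised it to 2.50, and leaving out control replicate 2 lowered it to 1.16. The list held 6 measured genes of 10, Pf4 again among them, with 5 higher, 1 lower and 0 called. Groups did not overlap for 2 of the 6, Treml1 among them, beside 5.67% of all genes. The list's mean level was 4.07 to 5.43 in controls and 5.32 to 5.56 in knockdown samples, with the same 4 highest arrays as Hbb-y. For Treml1, a receptor of platelet granules, the difference was 0.33 (SE 0.16), or 0.15 with knockdown replicate 3 left out. Itga2b, the platelet integrin that defines the lineage, was dim at percentile 37.8.

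**Figure D4:**
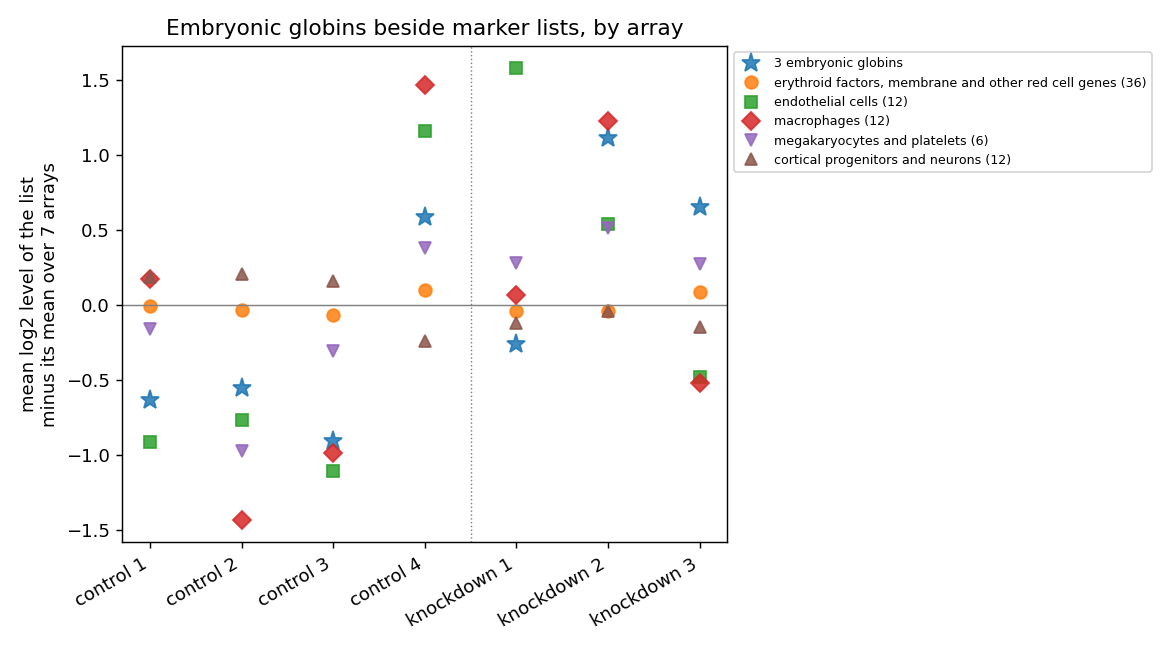
Mean log2 level of the 3 embryonic globins and of 5 marker lists (number of genes in brackets), each minus its own mean over the 7 arrays (vertical axis), by array. The mean of the 36 further red cell genes stays near 0 in every array, though single genes among them vary more and many are dim (median percentile 41.8). The endothelial and macrophage means spread over more than 2 log2 units. Globins and endothelial genes share their 4 highest arrays, but knockdown replicates 1 and 3 take different orders in them.

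In the cortical list 3 of 12 genes were higher, 9 lower and 0 called, with a median difference of -0.15. Its means were 9.13 to 9.57 in controls and 9.22 to 9.32 in knockdown samples. Groups did not overlap for 2 of the 12, Neurod6 and Dcx, beside 5.67% of all genes. Fabp7 and Vim, genes of radial glia, were the brightest, with differences of 0.23 (SE 0.20) and 0.29 (SE 0.17). Neurod6 and Dcx had the smallest p, with differences of -0.71 (SE 0.13) and -0.52 (SE 0.19). These were opposite in sign to those of the embryonic globins, while those of Fabp7 and Vim had the same sign.

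The 8 genes most like the embryonic globins were sought among 5753 genes that varied by at least 1 log2 unit over the 7 arrays, by Pearson's r with the mean globin deviation. They were Cry2, a repressor of the circadian clock (0.952), Ell2, an elongation factor of RNA polymerase II (0.947), the tubulin Tubb6 (0.944), the membrane protein Emp2 (0.944), the thromboxane synthase Tbxas1 (0.936), the inflammasome adaptor Pycard (0.933), Btaf1, a regulator of the TATA-binding protein (0.932), and Phyhd1 (0.920). A choice by r makes these values high, and none of the 8 is in the red cell lists. Pycard gave 5.43, 5.47, 4.99 and 7.42 in controls and 5.92, 7.46 and 6.29 in knockdown samples, which are the 4 highest arrays of Hbb-y in another order. Their differences between groups ran from 0.34 (Tbxas1, SE 0.24) to 0.73 (Pycard, SE 0.62), and none was called. With knockdown replicate 2 left out they were 0.10 for Tbxas1 and 0.28 for Pycard, and with control replicate 4 left out Pycard was at 1.26.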

How the data were processed

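Expression was measured on 1 Affymetrix array per sample, in 4 control and 3 knockdown samples. The authors deposited log2 values. Per the submitters' processing notes, these came from RMA in the Expression Console software, version 1.2. RMA subtracts background, equalises probe quantiles between arrays and summarises each probe set, which can compress differences of dim probe sets. No gene coordinates are printed, since the genome build of the array is not given in the sources. Promoter windows are from RefSeq, GRCm38.p6. Of 35556 probe sets, 21789 carry 1 symbol, 1621 several and 12146 none, and 21698 of the first matched the RefSeq gene table for names. Each gene took its probe set with the highest mean, which left 19938 genes.

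Groups were compared by limma 3.58.1 in R 4.3.3 (lmFit and eBayes, no covariates, two-sided, Benjamini-Hochberg over all genes, threshold 0.05). The fit was also run on simulated data with differences larger than those of the 8 genes, which does not check it at their sizes. SE and 95% intervals are limma's. No value was filtered. Precision is limited by how many arrays there are. The limma p-values set each group difference against the spread between these samples, moderated over all genes. The members and the companion lists were chosen with earlier results of these data known. Named companions are, in each list, the 2 genes with the highest mean level and the 2 with the smallest p, and differences are given mainly for the latter. The 8 genes with the most like pattern were taken by r. Genes outside this rule (Gata1, Klf1, Alas1, Cdh5, Pecam1, Itga2b) are named as defining markers or for comparison, chosen after their values were seen. Aqp1 and Lmo2 are named for their wide range. Alternatives were a trend, a robust prior, array weights, equal medians, quantile normalization, a filter on the dimmest 25%, the mean over probe sets, a replicate block, each array left out and an adjusted p under 0.1. Cyclic loess and the marker list covariates were added after seeing the data.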

Additional observations from a re-analysis of the deposited data

Results flagged for a closer look

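Among the 4 controls, some values lay far from the other 3, by Dixon's ratio, which marks about 1 group in 20 by chance. The ratio was taken for the members, Trnp1, the companions named by rule, the genes of like pattern and the list means. Some of the marks can therefore come by chance. Rhag was high in control replicate 2, at 3.34, against 3.02 to 3.04 in the other controls. Control replicate 4 was high in the mean of the endothelial list, at 6.77, and low in the mean of the cortical list, at 9.13. It was also high in Ell2, at 5.12, and in Tubb6, at 7.09, which were chosen for their likeness to the globins, and low in Sox6, at 7.02. Tmem14c was low in control replicate 1, at 7.29.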

How the results depend on the processing

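In all alternatives run, 0 genes and 0 of the 8 members were called. The differences of Hbb-y, Hbb-bh1, Hba-x and Alas2 were above 0 and those of Rhag and Hemgn below 0 in every alternative that measured them. With 1 array left out they ran from 0.54 to 1.01 for Hbb-y, 0.48 to 1.65 for Hbb-bh1, 0.61 to 1.34 for Hba-x and 0.53 to 0.93 for Alas2. The median of the members was 0.69 with the dimmest 25% of genes left out, where Epb42 and Rhag drop out. Slc4a1 changed sign with array weights (0.053), with a replicate block (0.14) and with 1 array left out (-0.10 to 0.14). Epb42 ranged from -0.074 to 0.23 with 1 array left out. Ldb1 was at 0.015 and 0.044 after quantile and cyclic loess normalization. Ngb was at -0.0062 with array weights, -0.014 after quantile normalization, -0.041 with a replicate block and -0.092 to 0.20 with 1 array left out, and Cygb ranged from -0.13 to 0.22. The median of the erythroid factors ranged from -0.0325 to 0.17 with 1 array left out, and that of the cortical list from -0.31 to -0.0013. The cause of these changes was not tested.

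Both groups carry replicate numbers 1 to 3, and the labels name no pairing. The deviations of same-numbered samples correlated at 0.028, -0.051 and 0.072 over all genes, and those of other pairs at -0.20 to 0.14. These values do not settle whether same-numbered samples were handled together. The replicate block leaves out control replicate 4, and 0 genes were called with it. Hbb-y, Hba-x and Alas2 differed by 1.01 (SE 0.13), 1.34 (SE 0.21) and 0.93 (SE 0.15), each at a limma adjusted p of 0.665. The median of the cortical list was -0.31.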
